A study of Mus musculus with 18 samples.

Results

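The mammary duct has an outer layer of basal, contractile myoepithelial cells that lie on the basement membrane and an inner luminal layer, which holds the progenitors of milk-secreting cells (luminal progenitors, LP) and hormone-sensing mature luminal (ML) cells. Basal identity is tied to the transcription factor p63 and keratins 5 and 14. Luminal progenitors are known for the receptor Kit, the transcription factor Elf5 and keratins 8 and 18. Here, LP and basal cells that were isolated by flow sorting from the same Brca2-deleted mice (KO) were compared, to describe which lineage differences were present in that gland. All 6 KO libraries of these cell populations were used, 3 LP and 3 basal, of 18 libraries in the series. They were chosen by their sample names, which also give the mouse, so that each LP library was set against the basal library of its own mouse.

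The KO mice carried MMTV-cre(T/+), which drives Cre in mammary epithelium and some other secretory tissues, together with Brca2(delta/delta) and Trp53(delta/+). All mice were female and 14 weeks old, with 3 mice in each genotype, and no agent was given per the labels. The wild-type (WT) controls are described as wild type in the design, but every library, KO or WT, has 1 and the same strain entry, MMTVcre with Brca2(fl/fl) and Trp53(fl/+), so whether the WT mice carried the transgene or the floxed alleles was not settled by the labels. Sample titles call the KO mice knockdown, the genotype label reads Brca2KO, and whether KO and WT mice were littermates is not given. Each library was made from total RNA of a sorted population of 1 mouse, so fewer cells of a type and less RNA per cell cannot be told apart.

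Values are read counts per gene, given as CPM, a gene's counts scaled to a common library total, with library totals adjusted by the trimmed mean of M-values, always in the order of KO mouse 1, 2 and 3. A log2 fold change is LP over basal, positive where LP is higher, from edgeR's quasi-likelihood fit with the mouse as a block. Its standard error (SE) was worked back from the F test of that fit, as the absolute log2 fold change over the square root of F. This SE is approximate, and it is not reliable for very small changes or for genes with hardly any counts in a group. A gene is called higher, lower or changed where the Benjamini-Hochberg adjusted p over all 16466 genes tested is under 0.05. The basal KO libraries held 21904483, 39194603 and 14148341 counts and the LP KO libraries 22416572, 32724291 and 27547285, against 5973389 to 39194603 over the series, and the 10 most abundant genes took 4.83% to 8.81% of a library. The first principal component (49.6% of the variance) put all basal libraries on one side. The second (19.1%) spread the luminal libraries, and on it the ML KO libraries lay between ML WT and LP WT libraries. ML libraries entered the expression filter, the scaling and the mouse terms of the fit, as well as the shared estimate of the spread.

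The LP library of KO mouse 3 stood apart by gene length. Over 9562 well-expressed genes sorted into 5 length bins, its log2 level relative to the other LP KO libraries ran from 0.58 for the shortest genes (up to 1693 bases) to -0.70 for the longest (from 5052 bases). The LP less basal log2 ratio of KO mouse 3 ran from 0.99 to -0.97 over the same bins, that of KO mouse 1 from 0.21 to -0.18 and that of KO mouse 2 from 0.13 to -0.07. Calls that rest on this library are named below, and counts are given without it where they moved.

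The targeted genes were examined first. Trp53, which encodes the tumour suppressor p53, was at 9.05, 7.25 and 7.71 CPM in LP KO and at 35.8, 18.6 and 13.7 CPM in basal KO libraries. The LP libraries were all below the basal ones, with a log2 fold change of -1.44 (SE 0.30, adjusted p = 0.0010). In WT mice it lay at 67.1, 72.6 and 150 CPM in LP and 57.0, 78.9 and 88.7 CPM in basal cells. Every KO library was thus below every WT library. The KO label, Trp53(delta/+), leaves an intact allele, and the cause of the low KO levels was not tested. Brca2, a mediator of homologous recombination, was at 20.4, 24.7 and 10.3 CPM in LP KO and 4.97, 10.6 and 7.09 CPM in basal KO libraries, so that the groups overlapped, with a log2 fold change of 1.26 (SE 0.29, adjusted p = 0.0023). That call did not hold without KO mouse 1 (adjusted p = 0.051 in edgeR) or without the mouse block (0.052). A whole-gene count does not show whether an exon was deleted, so the Brca2 level checks nothing about the allele.

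Most defining markers of each sorted population were present in it and low in the other. Krt5 in LP KO was at 0.232% of its mean in basal KO libraries, Acta2 at 0.161% and Trp63 at 1.13%. Itga6 (18.7%) and Mme (10.9%) were less low. In the other direction, basal KO libraries held Kit at 2.68% of its LP KO mean, Elf5 at 1.95% and Lalba at 2.75%. In WT mice the same 3 luminal genes stood in basal libraries at 0.298%, 0.567% and 0.439% of their LP level. Ehf (4.26% in KO and 0.702% in WT) moved likewise. Cd14 (2.52% and 2.07%), Krt8 (10.2% and 9.11%) and Krt18 (5.61% and 3.73%) moved less. The part of cells carried over in the sort in these levels was not tested. Itgb3, the integrin often used to mark luminal progenitors, was not higher in LP, and its mean in basal KO libraries was 213% of that in LP KO.

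Between KO LP and KO basal cells, 7768 of 16466 genes (47.2%) were called. Of these, 3760 (22.8% of those tested) were higher in LP and 4008 (24.3%) in basal cells. At a fold of 16 or more the numbers were 287 and 879, and at 64 or more 22 and 358, so the far end of the distribution was mostly basal. The median log2 fold change over all genes was 0.02. Without the LP library of KO mouse 3, 6420 genes were called (3101 and 3319). Without all libraries of KO mouse 1, 2 or 3 in turn, 5979, 6186 and 5885 were called. Without the mouse as a block (no pairing), 6737 were called. The 6 KO libraries alone gave 6859.

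Among the genes with the largest rise in LP, Ltf (lactoferrin, an iron-binding antibacterial milk protein) lay at 2640, 1760 and 2990 CPM in LP and 23.7, 32.3 and 26.8 CPM in basal cells, a log2 fold change of 6.38 (SE 0.55, adjusted p = 1.9e-07). Sftpd, a collectin of surface defence, was at 36.9, 33.6 and 70.7 against 0.0541, 1.16 and 0.665 CPM (6.51, SE 0.93). Mucins were among them, Muc4 at 531, 257 and 138 against 2.11, 2.98 and 5.69 CPM and Muc20 at 162, 128 and 121 against 0.757, 2.54 and 3.47 CPM. Gabrp, a subunit of the GABA-A receptor, was at 151, 130 and 112 against 0.703, 3.52 and 2.58 CPM. The lipoxygenases Alox12e and Alox15, the antiprotease-like Wfdc18, the chemokine Ccl20, the junction scaffold Tjp3, Igsf5 and Bglap3 completed the 12, with log2 fold changes of 5.75 to 6.04. LP and basal libraries did not overlap for any of the 12, a condition of their choice that 26.6% of all genes tested met with LP above and 28.0% with basal above.

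At the basal end, Acta2, the smooth muscle actin of myoepithelial cells, was at 4530, 4600 and 4530 CPM in basal and 4.21, 3.63 and 14.2 CPM in LP cells (log2 fold change -9.49, SE 0.45, adjusted p = 6.2e-10). Cxcl14, a chemokine, was at 2070, 1790 and 1260 against 2.33, 1.84 and 2.80 CPM (-9.49, SE 0.44). Fmod (fibromodulin, a collagen-binding proteoglycan) was at 189, 136 and 235 against 0.250, 0.0558 and 0.264 CPM. Scn7a (a sodium channel, -9.92), Reln (reelin, a secreted matrix protein, -9.50) and Hmcn1 (hemicentin, -9.40) were of the same order.

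Keratins split by lineage. Krt5 was at 1780, 1460 and 1630 CPM in basal and 2.29, 2.29 and 6.72 CPM in LP cells, a log2 fold change of -8.84 (SE 0.42, adjusted p = 6.2e-10). Krt14, its partner in basal filaments, was at 5170, 3280 and 2410 against 26.7, 24.3 and 53 CPM (-6.72, SE 0.52, adjusted p = 5.5e-08). The highest LP value of either gene was in KO mouse 3. In all, 5 of 7 basal keratins were higher in basal cells, with Krt15, Krt16 and Krt17 the others, against 24.3% of all genes. The list's median was -6.23 against 0.02 for all genes. The stress keratins Krt6a and Krt6b were not called, at 46.8, 73.7 and 33.3 CPM (Krt6a) in LP and 73.3, 62.8 and 47.1 CPM in basal cells. Of 5 luminal keratins, 4 were higher in LP (median 4.11), against 22.8% of all genes. Krt8 was at 3840, 3230 and 4860 CPM in LP but still at 500, 358 and 360 CPM in basal cells (3.29, SE 0.23, adjusted p = 2e-08). Krt19, at 1510, 1180 and 2720 against 62.3, 56.8 and 61.6 CPM, differed more (4.84, SE 0.31). Per gene length, Krt14 in basal cells (mean 2180 CPM per kilobase of gene length) and Krt8 in LP (2210) were at alike levels.

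**Figure D1:**
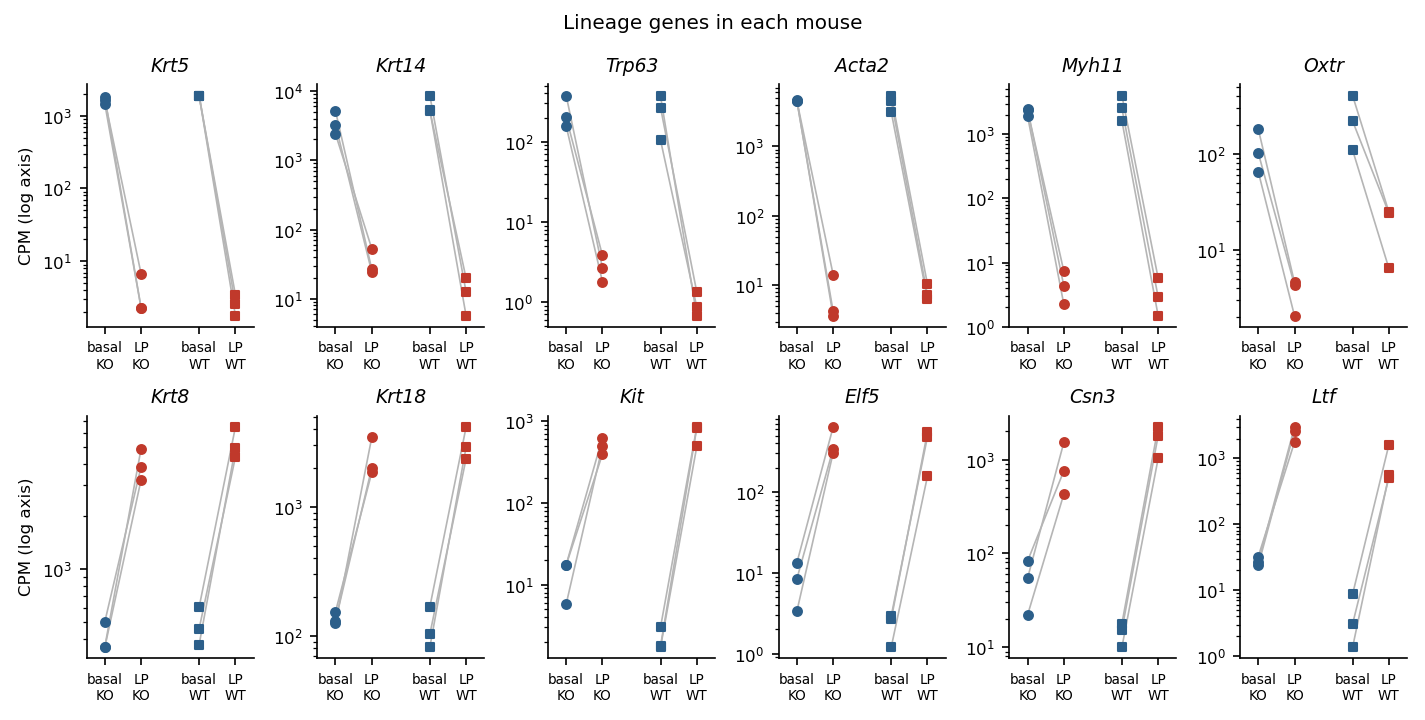
CPM on a log axis of defining basal and luminal genes in each LP and basal library of KO and WT mice, 1 point per library. Basal KO and LP KO points do not overlap for Krt5 (1460 and above against 6.72 and below) or Kit (17.5 and below against 397 and above).

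Trp63 itself, which encodes p63, was at 157, 201 and 377 CPM in basal and 1.79, 3.82 and 2.67 CPM in LP cells (-6.43, SE 0.43, adjusted p = 1.2e-08). Hemidesmosomes fix basal cells to laminin through the integrin of Itga6 and Itgb4. In this list, 11 of 12 genes were higher in basal cells (median -2.81) and none in LP, against 24.3% and 22.8% of all genes. Col17a1, a hemidesmosomal transmembrane collagen, was at 792, 883 and 1010 against 3.13, 2.06 and 2.37 CPM (-8.49, SE 0.35). Lama3, a chain of laminin-332, was at 1320, 857 and 962 against 24.4, 20.4 and 11.5 CPM (-5.82, SE 0.30). Itgb4 differed least of those called, at 187, 202 and 176 against 130, 112 and 120 CPM (-0.64, SE 0.20, adjusted p = 0.016), and its call did not hold without KO mouse 1 or 2, nor with the length trend of each library taken out (-0.29, adjusted p = 0.28 in edgeR). Plec, the linker to keratin filaments, overlapped and was not called. Itga6 was at 284, 270 and 58.0 CPM in LP, so that its log2 fold change of -2.6 rests in part on the mouse 3 library.

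Every one of the 20 contractile genes was higher in basal cells (median -3.27), against 24.3% of all genes, and also without KO mouse 3 (20 of 20). Myh11, smooth muscle myosin heavy chain, was at 2350, 1930 and 2430 CPM in basal and 7.34, 2.23 and 4.32 CPM in LP cells (-9.04, SE 0.36, adjusted p = 1.8e-10). Cnn1 (calponin) was at 575, 556 and 426 against 0.667, 0.335 and 1.61 CPM, and Tagln at 2260, 1990 and 1610 against 21.6, 19.6 and 51.8 CPM. The folds of Vcl and Myl6, which are not limited to muscle, were smaller. Vcl (vinculin) was at 843, 796 and 934 against 334, 282 and 127 CPM (-1.87, SE 0.34) and Myl6 at 230, 211 and 194 against 87.2, 85.9 and 167 CPM (-0.95, SE 0.23, adjusted p = 0.0033). Only Pdlim3 overlapped between the populations, at 248, 93.3 and 164 CPM in basal and 80.0, 70.3 and 98.4 CPM in LP cells (-0.89, SE 0.24). Without KO mouse 1, 17 of the 20 were called, and Myl6 (adjusted p = 0.053 in edgeR) and Pdlim3 (0.089) were not. Smooth muscle of vessels shares these genes. Of 12 markers of endothelium and pericytes 8 were higher in basal cells and 1, Notch3, in LP, against 24.3% and 22.8% of all genes. Without KO mouse 3, the counts of these markers were 4 and 1. Their sums were 77.6, 79.6 and 83.5 CPM in basal and 216, 240 and 107 CPM in LP KO libraries, and without Notch3 67.0, 64.2 and 68.3 CPM in basal and 20, 17.5 and 14.0 CPM in LP. Rgs5 (-3.34) and Pdgfrb (-4.08) of pericytes had 358 and 827 counts in all over the 3 basal libraries. The part of vessel cells in the contractile values was not tested.

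Of the genes that control contraction, Oxtr, the oxytocin receptor through which milk ejection is triggered, was at 65.6, 103 and 183 CPM in basal and 2.04, 4.27 and 4.55 CPM in LP cells (-4.96, SE 0.33, adjusted p = 1.1e-08). Srf, the factor that binds CArG boxes of contractile genes, was not called, at 173, 199 and 189 CPM in LP and 141, 230 and 292 CPM in basal cells. Its cofactor genes went both ways, Mrtfb higher in LP (1.07, SE 0.26) and Mrtfa higher in basal cells (-0.60, SE 0.21, adjusted p = 0.028), though Mrtfa was not called without any 1 of the 3 KO mice. Over the 12 genes, 2 were higher in LP and 8 in basal cells, against 22.8% and 24.3% of all genes. The counts were 2 and 5 without KO mouse 3.

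The CArG box, the letters that serum response factor is known to bind, is shown in promoters of contractile genes because it was more frequent there than elsewhere. Promoters are the 250 bases before the start in RefSeq, build GRCm38.p6, read on the gene's strand 5′ to 3′, with the box in capitals. The box was looked for on both strands and is its own mirror. It was present in 4 of 17 contractile genes with an entry (23.5%), against 1.44% of 12237 tested genes and 1.62% of 27025 entries. These were Myl9, Cnn2, Vcl and Myl6, 3 of which are printed.
Myl9: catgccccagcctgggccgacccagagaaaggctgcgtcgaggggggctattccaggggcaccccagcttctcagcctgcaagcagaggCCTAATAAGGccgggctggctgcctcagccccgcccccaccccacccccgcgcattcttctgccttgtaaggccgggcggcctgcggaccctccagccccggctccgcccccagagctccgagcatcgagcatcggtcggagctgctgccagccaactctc
Cnn2: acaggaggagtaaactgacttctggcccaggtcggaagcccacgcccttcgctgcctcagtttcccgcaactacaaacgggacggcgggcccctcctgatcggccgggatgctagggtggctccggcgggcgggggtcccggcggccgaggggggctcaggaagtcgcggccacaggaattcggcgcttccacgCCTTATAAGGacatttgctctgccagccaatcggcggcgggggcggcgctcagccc
Vcl: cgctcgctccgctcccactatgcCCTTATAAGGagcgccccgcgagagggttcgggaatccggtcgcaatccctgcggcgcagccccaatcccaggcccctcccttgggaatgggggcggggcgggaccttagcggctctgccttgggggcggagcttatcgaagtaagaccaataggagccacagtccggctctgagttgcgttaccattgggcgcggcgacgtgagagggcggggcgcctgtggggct
They lie at chr2:156775214-156775463 (Myl9, plus strand), chr10:79988350-79988599 (Cnn2, plus strand) and chr14:20929148-20929397 (Vcl, plus strand), with the box starting 161, 56 and 227 bases before the start. Myl9, the regulatory myosin light chain, was at 553, 525 and 521 CPM in basal and 1.42, 0.892 and 2.34 CPM in LP cells (-8.51, SE 0.36), and Cnn2 at 101, 188 and 210 against 36.5, 30.6 and 54.7 CPM (-2.03, SE 0.27). A match describes these letters alone.

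Basement membrane and matrix genes were higher in basal cells in 20 of 23 cases (median -3.45) and in LP in none, against 24.3% and 22.8% of all genes. Sparc, a collagen-binding matrix protein, was at 1340, 1050 and 1390 CPM in basal and 3.50, 3.15 and 7.91 CPM in LP cells (-8.13, SE 0.33, adjusted p = 1.8e-10). Col7a1, the collagen of anchoring fibrils, was at 768, 626 and 1080 against 9.67, 5.35 and 7.31 CPM (-6.79, SE 0.38). Fbn1 (fibrillin, -7.77) and Fbln2 (fibulin, -6.54) were also without overlap. All 12 fibroblast markers were higher in basal cells too, with sums of 1680, 1670 and 1900 CPM in basal KO and 159, 169 and 240 CPM in LP KO libraries. Of these, Cxcl12 made up 564, 597 and 661 CPM of the basal sums and Col1a1 24.9, 36.4 and 26.0 CPM. Without KO mouse 1, 9 of the 12 were called. The part of stromal cells in the matrix values was not tested.

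Regulators of epithelial-mesenchymal transition are known to repress junction genes and to be part of the normal basal programme. In this list 11 of 13 genes were higher in basal cells (median -3.69), against 24.3% of all genes. Snai2 (Slug) was at 130, 98.9 and 92.0 CPM in basal and 0.167, 0.0279 and 0.362 CPM in LP cells (-9.18, SE 0.53, adjusted p = 3.1e-09). Zeb1 was low in both, at 3.68, 3.55 and 3.40 against 1.13, 0.418 and 0.165 CPM (-2.87, SE 0.68). Vim (vimentin) was at 305, 374 and 238 against 24.4, 15.7 and 31.5 CPM (-3.69, SE 0.32). Snai1 and Sox9 were not called. Sox9, a factor of luminal progenitors and basal cells, lay at 342, 329 and 340 CPM in LP and 339, 226 and 258 CPM in basal cells.

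Of 24 tight junction and polarity genes, 16 were higher in LP and 3 in basal cells (median 2.65), against 22.8% and 24.3% of all genes. The counts were 16 and 1 without KO mouse 3. Cldn7 was at 303, 233 and 346 CPM in LP and 8.32, 9.04 and 8.05 CPM in basal cells (5.10, SE 0.24, adjusted p = 5.1e-10). Ocln (occludin) was at 163, 117 and 93.0 against 14.9, 10.4 and 9.68 CPM (3.40, SE 0.18, adjusted p = 1.9e-09). Cldn3 (5.58, SE 0.36) and the scaffold Cgn (cingulin, 5.12, SE 0.34) were of like size. The 3 genes higher in basal cells were Cldn5, known from endothelium, and the polarity genes Pard3 and Prkci, all named after their values were seen. Cldn5 was at 1.30, 2.14 and 1.40 CPM in basal and 0.334, 0.502 and 0.395 CPM in LP cells (-1.95, SE 0.64). Without KO mouse 3, Pard3 was the one still called, and Prkci had an adjusted p of 0.36 (edgeR).

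**Figure D2:**
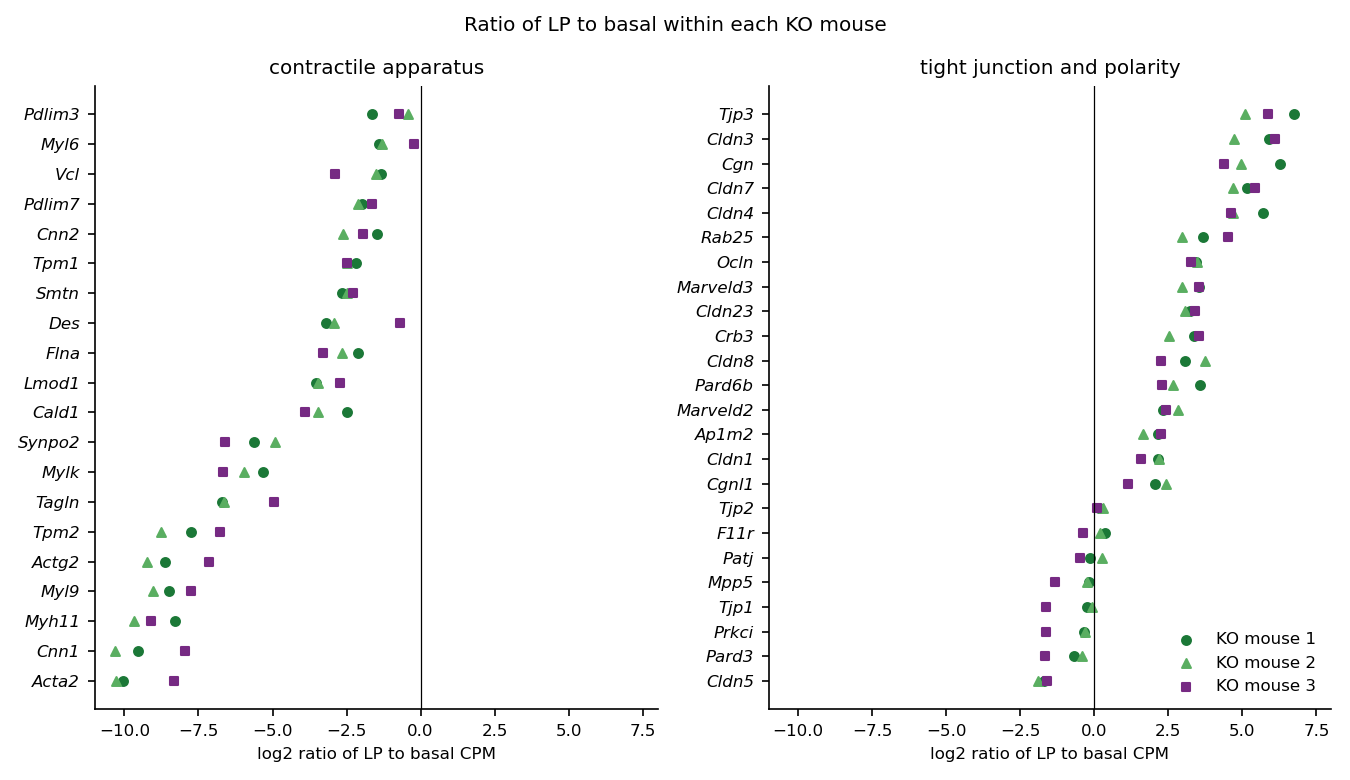
Log2 ratio of LP to basal CPM within each KO mouse (horizontal axis) for each contractile gene (left) and each tight junction and polarity gene (right), 1 point per mouse, with the vertical line at equal levels. All 20 contractile genes lie left of the line in all 3 mice, and KO mouse 3 lies furthest left for Tjp1, Prkci and Pard3.

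Of 15 epithelial adhesion and desmosome genes, 5 were higher in LP and 6 in basal cells (median 0.17), against 22.8% and 24.3% of all genes. Cdh3, P-cadherin, was at 478, 352 and 340 CPM in basal and 1.00, 0.586 and 0.955 CPM in LP cells (-8.85, SE 0.32, adjusted p = 1.6e-10). The desmosomal cadherins Dsc3 (-8.14, SE 0.47) and Dsg3 (-5.08, SE 0.45) were also basal. The desmosome plaque gene Pkp2 was the opposite, at 111, 82.5 and 102 CPM in LP against 3.30, 2.68 and 2.95 CPM (5.04, SE 0.22, adjusted p = 2.3e-10). Epcam was at 1860, 1680 and 1780 CPM in LP and 801, 543 and 507 CPM in basal cells (1.55, SE 0.21).

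Snail, Slug and Zeb proteins are known to bind the E-box CACCTG, or CAGGTG on the other strand, and promoters of junction and luminal keratin genes are shown with it in capitals because the box was more frequent among genes higher in LP. It was present in 37.4% of promoters of genes over 16-fold higher in LP (79 of 211), 29.9% of those 4- to 16-fold higher, 21.1% of those over 16-fold higher in basal cells and 19.3% of all tested genes (19.4% of all entries). The median GC content of these promoters was 53.6% for the first group and 59.2% for all tested genes. Listed starts per gene were 1.21 in the first group, 1.27 in all tested genes and 1.42 in the tight junction list. Cldn7 and Ocln have 2 listed starts each, and a start with the most matches is printed. Of 19 tight junction genes with an entry, 11 (57.9%) held it, as did 4 of 4 luminal keratins, and also 4 of 6 genes of the p63 and hemidesmosome list (66.7%), which were higher in basal cells.
Cldn7: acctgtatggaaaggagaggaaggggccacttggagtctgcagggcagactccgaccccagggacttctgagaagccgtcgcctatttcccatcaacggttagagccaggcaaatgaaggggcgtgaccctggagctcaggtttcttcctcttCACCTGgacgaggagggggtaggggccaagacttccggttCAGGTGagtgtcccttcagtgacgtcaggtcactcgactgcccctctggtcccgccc
Ocln: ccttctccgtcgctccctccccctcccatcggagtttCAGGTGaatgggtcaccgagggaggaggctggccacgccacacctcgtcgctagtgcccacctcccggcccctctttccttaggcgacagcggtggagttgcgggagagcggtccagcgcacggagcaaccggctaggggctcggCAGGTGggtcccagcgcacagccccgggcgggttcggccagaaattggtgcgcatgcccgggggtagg
Krt18: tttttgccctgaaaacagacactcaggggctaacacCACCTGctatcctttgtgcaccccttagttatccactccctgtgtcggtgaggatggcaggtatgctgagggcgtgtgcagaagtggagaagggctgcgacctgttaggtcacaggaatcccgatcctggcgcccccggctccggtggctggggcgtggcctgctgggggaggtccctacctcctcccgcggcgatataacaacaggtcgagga
These are chr11:69965171-69965420 (Cldn7, plus strand), chr13:100552499-100552748 (Ocln, minus strand) and chr15:102027966-102028215 (Krt18, plus strand). The boxes start 97 and 57 bases before the start of Cldn7, 213 and 68 before Ocln and 214 before Krt18. Krt18 was at 2010, 1850 and 3460 CPM in LP and 131, 154 and 125 CPM in basal cells (4.11, SE 0.27, adjusted p = 1.1e-08).

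**Figure D3:**
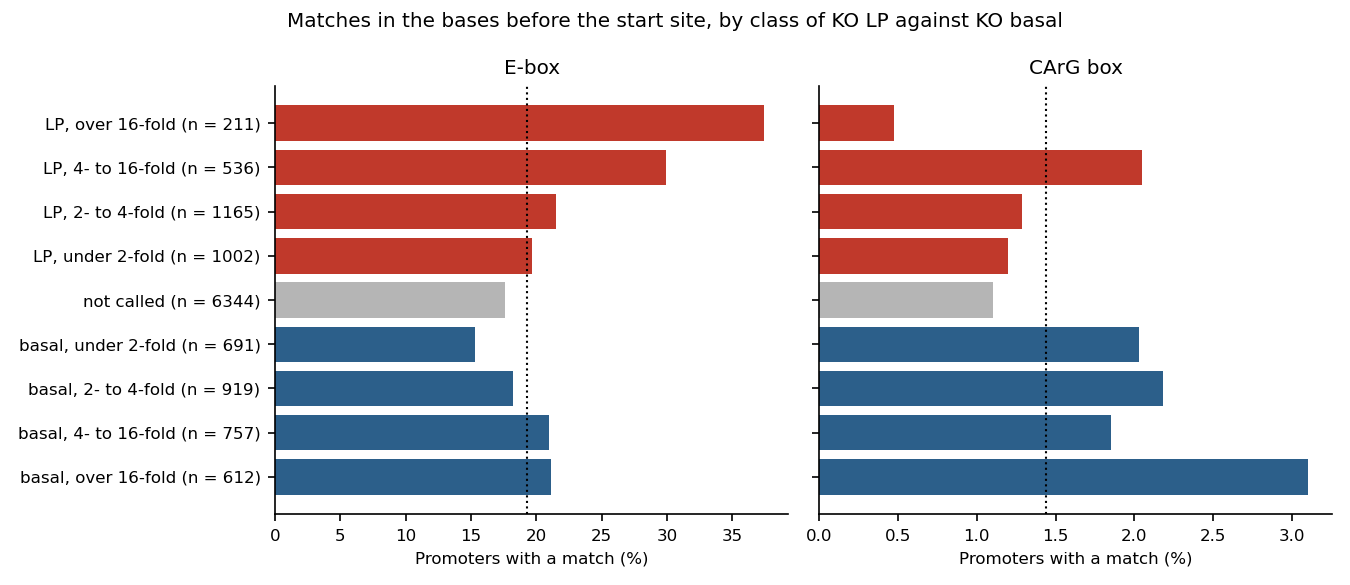
Share of promoters (in percent) that hold the E-box (left) or the CArG box (right), by class of LP over basal fold in KO mice, with the share over all tested genes for comparison. The E-box share was 37.4% in the class over 16-fold higher in LP and 17.6% among genes not called, and the CArG share was 3.1% in the class over 16-fold higher in basal cells.

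Of 34 luminal progenitor regulators, 16 were higher in LP and 7 in basal cells (median 0.77), against 22.8% and 24.3% of all genes. Kit, the stem cell factor receptor, was at 495, 630 and 397 CPM in LP and 5.78, 17.5 and 17.4 CPM in basal cells (5.24, SE 0.42, adjusted p = 9e-08). Elf5, the transcription factor of the alveolar fate, was at 306, 342 and 638 against 3.35, 8.42 and 13.3 CPM (5.66, SE 0.49, adjusted p = 1.9e-07). Ehf (4.56, SE 0.41) and Elf3 (3.27, SE 0.28), of the same ETS family, were higher in LP as well. Aldh1a3, the aldehyde dehydrogenase used to mark progenitors, was at 234, 197 and 123 against 7.03, 11.6 and 6.87 CPM. Runx1 went the other way, at 182, 185 and 219 CPM in LP and 1420, 1050 and 1020 CPM in basal cells (-2.59, SE 0.29, adjusted p = 3e-06). Gata3, a luminal fate factor, overlapped and was not called, at 70.6, 76.2 and 103 CPM in LP and 142, 79.8 and 76.4 CPM in basal cells. Sox10 was higher in LP (1.41, SE 0.29).

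Milk and secretory genes were higher in LP in 20 of 22 cases and in basal cells in none (median 4.1), against 22.8% and 24.3% of all genes. The LP count was 17 without the LP library of KO mouse 3. Casein levels varied widely among mice, with Csn2 (beta-casein) at 1440, 1210 and 3830 CPM in LP and 28.8, 110 and 123 CPM in basal cells (4.37, SE 0.90, adjusted p = 0.0010). Lalba, a subunit of lactose synthase, was at 19.7, 59.3 and 146 against 0.0541, 2.95 and 3.18 CPM (5.06, SE 0.58). For both genes the highest LP value was that of KO mouse 3. Muc1, an apical mucin, was more even, at 167, 201 and 171 against 4.22, 10.5 and 4.65 CPM (4.83, SE 0.41, adjusted p = 1.6e-07).

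Of 21 lipid synthesis genes, 6 were higher in LP and 3 in basal cells, not far from the shares over all genes (22.8% and 24.3%). Elovl6, a fatty acid elongase, was at 61.8, 99.2 and 47.7 CPM in LP and 15.3, 25.3 and 14.5 CPM in basal cells (1.90, SE 0.30, adjusted p = 0.00011). The desaturase Scd1 (2.56, SE 0.42) and the droplet protein Plin2 (2.46, SE 0.42) were higher in LP. Dgat2, a triglyceride synthase, was higher in basal cells (-1.79, SE 0.37).

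Innate defence genes of luminal cells were higher in LP in 20 of 22 cases (median 2.26), against 22.8% of all genes, and in 18 without KO mouse 3. Tnf, the cytokine, was at 143, 117 and 111 CPM in LP and 3.13, 3.74 and 2.95 CPM in basal cells (5.21, SE 0.39, adjusted p = 4.3e-08). Cd14, the lipopolysaccharide co-receptor, was at 460, 566 and 938 against 11.2, 21.7 and 16.5 CPM (5.27, SE 0.42). Tnfaip3, an inhibitor of NF-kB, was at 408, 246 and 162 against 55.2, 57.5 and 38.0 CPM (2.34, SE 0.22). Summed immune cell markers, 8 genes, lay at 14.9, 10.3 and 57.3 CPM in LP and 11, 10.6 and 15.7 CPM in basal KO libraries, so that mouse 3 was high in LP, with Lyz2 at 25.3 CPM there and under 1 CPM in the other LP libraries. Summed blood and muscle markers, 7 genes, were highest there too, at 7.3, 5.02 and 24.8 CPM in LP KO libraries. Of the immune markers 2 were called higher in LP. Without KO mouse 3, edgeR called 0 of the 7 tested, with 1 at an unadjusted p under 0.05. The part of immune cells in the values of Tnf, Cd14 and Tnfaip3 was not tested.

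**Figure D4:**
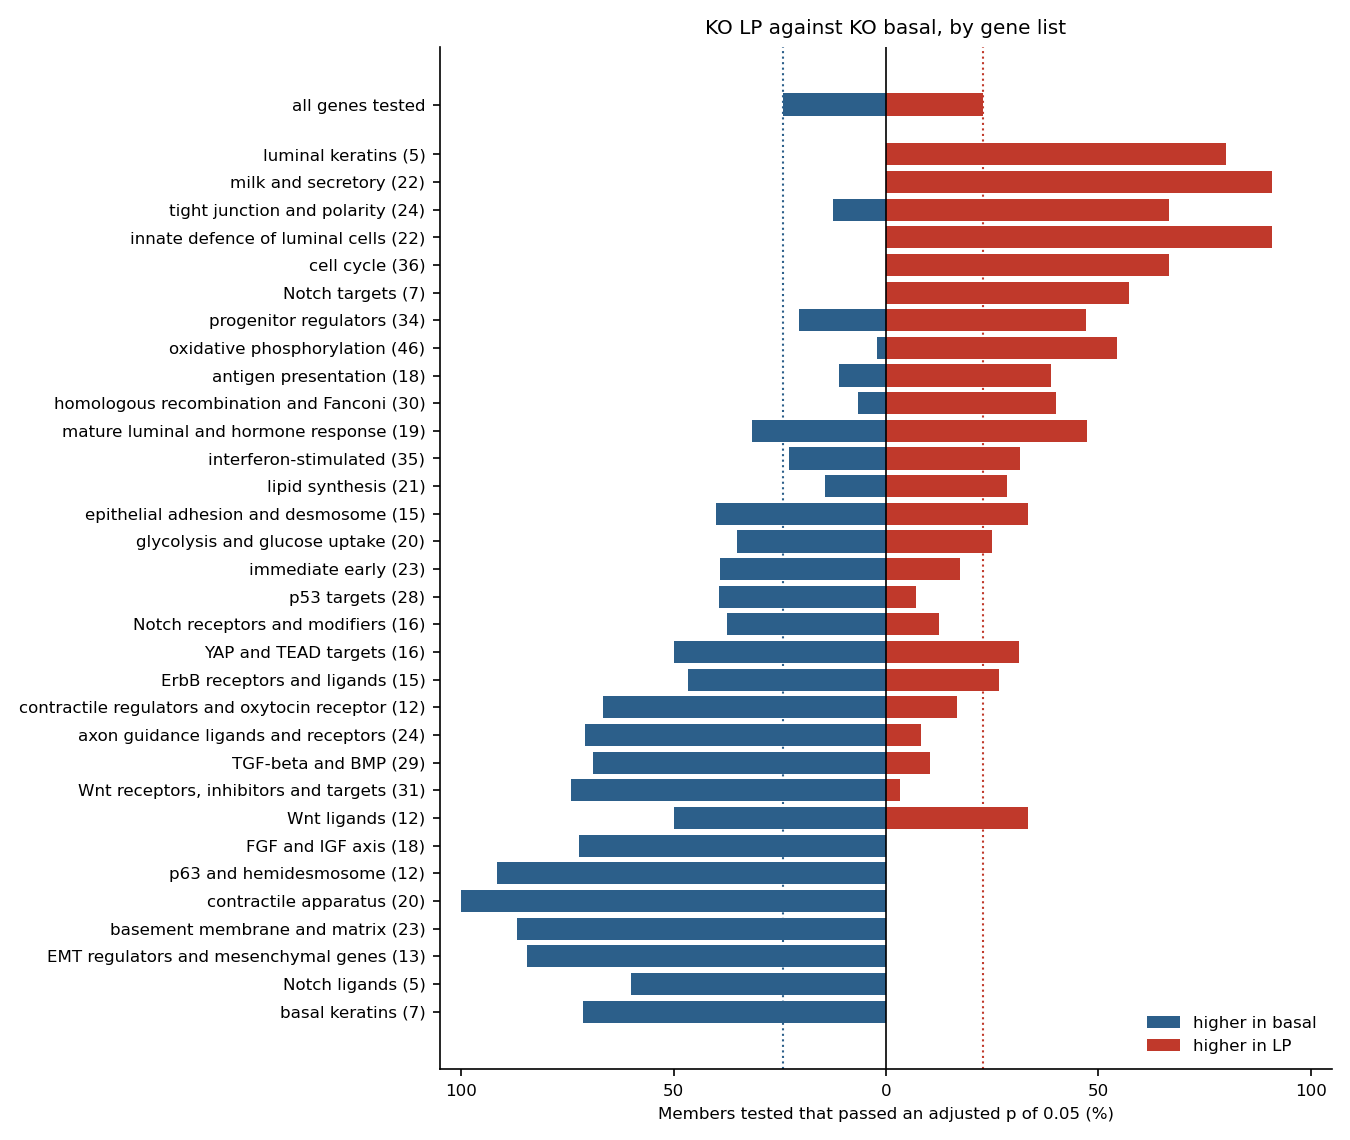
Members of each gene list called higher in LP or in basal cells of KO mice, as a share of the members tested, with the share over all genes (22.8% and 24.3%) as lines. Contractile genes were all higher in basal cells (20 of 20), and milk genes reached 20 of 22 in LP.

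No source used here gives the antibodies of the sort, so surface markers in common use for mammary cells were taken. Of 14 markers, 6 were higher in LP and 7 in basal cells, and 5 and 5 without KO mouse 3. All genes gave 22.8% and 24.3%. Itgb1, an integrin of basal cells, was at 1580, 1280 and 1050 CPM in basal and 542, 509 and 336 CPM in LP cells (-1.51, SE 0.20). Cd55, reported on progenitors, was at 55.2, 76.4 and 57.0 CPM in LP and 7.78, 11.6 and 11.8 CPM in basal cells (2.6, SE 0.37). Cd24a was not called (0.36, SE 0.27), though its 3 LP values, 582, 517 and 509 CPM, lay above its 3 basal values, 429, 416 and 407 CPM. Itga2 was at 43.8, 41.7 and 4.68 CPM in LP and 133, 65.9 and 68.9 CPM in basal cells, with the mouse 3 library far below the others, and it was not called without that mouse (adjusted p = 0.063 in edgeR). Itgb3 was at 12.5, 18.7 and 21.7 CPM in LP and 34.4, 33.9 and 43.9 CPM in basal cells (-1.11, SE 0.29, adjusted p = 0.0052), a call that did not hold without KO mouse 1 (0.061 in edgeR).

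Genes of hormone-sensing mature luminal cells did not follow one population, with 9 of 19 higher in LP and 6 in basal cells (median 0.35). The shares over all genes were 22.8% and 24.3%. Prlr, the prolactin receptor, was higher in LP, at 51.5, 203 and 65.8 against 6.27, 17.9 and 30.9 CPM (2.65, SE 0.39, adjusted p = 5.1e-05), with the mouse 2 library highest. Cited1 (2.22, SE 0.30) and Wnt4 (2.87, SE 0.41) were higher in LP. Gfra1, a co-receptor of GDNF, was at 73.0, 102 and 65.7 CPM in basal and 0.208, 0.307 and 0.231 CPM in LP cells (-8.27, SE 0.53). Rcan1, a calcineurin inhibitor, was also basal (-2.89, SE 0.34).

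Notch signalling runs from ligands on one cell to receptors on its neighbour. The 3 abundant ligands were all higher in basal cells. Jag2 was at 127, 165 and 176 CPM in basal and 1.25, 1.48 and 1.32 CPM in LP cells (-6.85, SE 0.37, adjusted p = 1.8e-09). Dll1 was at 581, 408 and 572 against 7.76, 4.71 and 4.48 CPM (-6.53, SE 0.37) and Jag1 at 999, 844 and 569 against 16.8, 13.1 and 9.22 CPM (-5.95, SE 0.43). Dll3 and Dll4 were under 2 CPM in every LP and basal KO library.

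Of 16 receptor and modifier genes, 2 were higher in LP and 6 in basal cells, against 22.8% and 24.3% of all genes. Without KO mouse 1 or 2, 1 was higher in LP. Notch3 was at 196, 223 and 92.9 CPM in LP and 10.6, 15.5 and 15.3 CPM in basal cells (3.6, SE 0.31, adjusted p = 1.7e-07). Notch1 was not called, at 332, 352 and 168 CPM in LP and 206, 157 and 241 CPM in basal cells. Numbl, related to the Notch inhibitor Numb, was higher in basal cells (-3.29, SE 0.33). Among 7 target genes, 4 were higher in LP (median 1.06) and 3 without KO mouse 3. Hes1 was at 132, 143 and 235 against 63.3, 49.0 and 46.2 CPM (1.64, SE 0.24, adjusted p = 5.4e-05), Heyl at 14.3, 10.8 and 9.29 against 2.65, 1.98 and 1.62 CPM. Hey1 was not called, at 8.21, 34.0 and 40.0 CPM in LP and 35.8, 31.6 and 30.7 CPM in basal cells.

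Wnt ligands were divided between the layers, 4 of 12 higher in LP and 6 in basal cells, against 22.8% and 24.3% of all genes. Wnt10a was at 115, 110 and 78.4 CPM in basal and 0.709, 0.167 and 0.494 CPM in LP cells (-7.89, SE 0.44, adjusted p = 2.2e-09), and Wnt11 was basal as well (-4.18, SE 0.40). Wnt7b was at 78.8, 53.2 and 46.4 CPM in LP and 5.30, 4.76 and 5.76 CPM in basal cells (3.47, SE 0.23, adjusted p = 1e-08). Rspo1, an R-spondin that enhances Wnt signals, was at 106, 56.1 and 72.0 against 3.41, 1.68 and 2.44 CPM (5.01, SE 0.49). Of 31 receptors, inhibitors and targets, 23 were higher in basal cells and 1 in LP (median -1.77). Wif1, a secreted inhibitor, was at 306, 459 and 391 CPM in basal and 1.00, 0.837 and 0.659 CPM in LP cells (-8.85, SE 0.35, adjusted p = 1.8e-10). Lgr5, the R-spondin receptor, was at 95.1, 119 and 74.8 against 0.0834, 0.167 and 0.198 CPM (-9.29, SE 0.53). Dkk3 (-5.78) and Nkd1 (-6.66) were basal, and Tcf7l2 was the one gene higher in LP (0.71, SE 0.27, adjusted p = 0.039), a call that did not hold without KO mouse 1, 2 or 3.

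ErbB ligands were also split. Btc (betacellulin) was at 14.5, 18.7 and 12.7 CPM in LP and 0.541, 0.839 and 0.591 CPM in basal cells (4.55, SE 0.32, adjusted p = 2.4e-08). Ereg (epiregulin) was the reverse, at 140, 80.1 and 78.0 CPM in basal and 1.13, 1.14 and 0.329 CPM in LP cells (-6.82, SE 0.49). Nrg1 (neuregulin) was basal, at 117, 125 and 83.9 against 1.88, 2.90 and 1.81 CPM (-5.64, SE 0.58), and the receptor gene Erbb2 was higher in LP (1.56, SE 0.24). Of the 15 genes, 4 were higher in LP and 7 in basal cells, against 22.8% and 24.3% of all genes tested.

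Growth factor and TGF-beta genes were mostly basal. In the FGF and IGF list 13 of 18 were higher in basal cells and none in LP (median -2.09), against 24.3% and 22.8% of all genes. Igfbp3, a binding protein of insulin-like growth factors, was at 3400, 1980 and 1400 CPM in basal and 8.34, 11.5 and 5.93 CPM in LP cells (-7.97, SE 0.45, adjusted p = 2.6e-09). Igfbp2 (-7.60, SE 0.40) and the receptor gene Fgfr2 (349, 307 and 305 against 7.30, 28.2 and 11.3 CPM, -4.58, SE 0.38) were alike in direction. In the TGF-beta and BMP list 20 of 29 were higher in basal cells and 3 in LP (median -1.59). Bmp7 was at 113, 122 and 81.2 against 0.876, 0.641 and 1.05 CPM (-6.91, SE 0.37). The inhibitor of differentiation Id4 (-6.52, SE 0.45) and the co-receptor Tgfbr3 (-4.92, SE 0.36) were basal, and Inhbb, a subunit of activin B, was at 110, 214 and 162 CPM in LP and 8.97, 27.0 and 19.7 CPM in basal cells (3.20, SE 0.26).

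Axon guidance genes, which in the mammary duct are known for holding the layers together, were higher in basal cells in 17 of 24 cases and in LP in 2. Slit3 was at 110, 88.0 and 111 CPM in basal and 0.250, 0.307 and 0.856 CPM in LP cells (-7.77, SE 0.38, adjusted p = 6.5e-10). Slit2 (-7.23, SE 0.49) and its receptor gene Robo1 (-4.78, SE 0.38) were basal too. Ntn1 (netrin 1) was at 181, 190 and 99.0 CPM in LP and 14.4, 24.2 and 10.2 CPM in basal cells (3.26, SE 0.28). In the YAP and TEAD list 5 of 16 were higher in LP and 8 in basal cells, and 4 and 4 without KO mouse 3. All genes gave 22.8% and 24.3%. The kinase gene Axl (-5.55, SE 0.36) and Yap1 (626, 462 and 430 against 201, 175 and 138 CPM, -1.56, SE 0.21) were basal, and Tead2 (1.51, SE 0.23) and Tead4 (3.78, SE 0.64) were higher in LP.

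Cell cycle genes were higher in LP in 24 of 36 cases and in basal cells in none (median 1.12), against 22.8% and 24.3% of all genes. The LP count was 20 without the LP library of KO mouse 3, 9 without KO mouse 1 and 13 without the mouse block. Over all genes, 3760 were higher in LP with all libraries and 2672 without KO mouse 1. Mcm6, a subunit of the replicative helicase, was at 187, 221 and 135 CPM in LP and 48.6, 93.8 and 43.7 CPM in basal cells (1.6, SE 0.29, adjusted p = 0.00036). Birc5 (survivin) was at 40.5, 39.1 and 52.5 against 2.59, 14.9 and 6.43 CPM (2.64, SE 0.48) and Ccna2 (cyclin A2) at 70.7, 76.0 and 61 against 8.27, 29.8 and 19.1 CPM (1.93, SE 0.40). For all 3 genes the basal value of KO mouse 2 was the highest of its group. Aurkb, a mitotic kinase, was at 18.5, 19.7 and 17.9 against 2.70, 12.3 and 4.8 CPM (1.76, SE 0.39, adjusted p = 0.0017).

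Homologous recombination and Fanconi genes were higher in LP in 12 of 30 cases and in basal cells in 2. Without KO mouse 1, 6 were higher in LP. The shares over all genes were 22.8% in LP and 24.3% in basal cells. Rad51b (1.96, SE 0.44) and Rad51d (1.29, SE 0.28) were higher in LP, and Fancm (-1.09, SE 0.24) and Rbbp8, which encodes CtIP (-1.29, SE 0.29), in basal cells.

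Known p53 target genes were higher in basal cells in 11 of 28 cases and in LP in 2 (median -0.39). Over all genes, 24.3% were higher in basal cells and 22.8% in LP. Cdkn1a, the inhibitor p21, was at 832, 378 and 353 CPM in basal and 162, 139 and 105 CPM in LP cells (-1.88, SE 0.28, adjusted p = 5.6e-05). Phlda3, an AKT inhibitor, was at 143, 109 and 101 against 7.30, 5.55 and 5.70 CPM (-4.24, SE 0.37), and the desmosomal Perp at 461, 467 and 540 against 129, 128 and 132 CPM (-1.91, SE 0.26). Ercc5, a repair nuclease, was basal (-1.36, SE 0.20), and Plk3 was higher in LP (0.94, SE 0.26).

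Of 35 interferon-stimulated genes, 11 were higher in LP and 8 in basal cells, with 8 and 6 without KO mouse 3 and 7 in LP without KO mouse 2, and all genes gave 22.8% and 24.3%, near these shares. Oas2, a sensor of double-stranded RNA, was at 106, 88.5 and 184 CPM in LP and 2.65, 3.22 and 8.27 CPM in basal cells (4.81, SE 0.38, adjusted p = 7.8e-08). Stat2, a factor of interferon signalling, was basal, at 270, 124 and 190 against 69.5, 44.1 and 59.3 CPM (-1.72, SE 0.21). Bst2 (tetherin) was higher in LP (2.75, SE 0.35) and the GTPase gene Iigp1 in basal cells (-2.24, SE 0.34). In antigen presentation 7 of 18 were higher in LP and 2 in basal cells (1 without KO mouse 1, KO mouse 3, WT mouse 2 or the mouse block, and with the length trend taken out), with the immunoproteasome subunit gene Psmb8 at 226, 114 and 280 against 65.3, 31.9 and 41.8 CPM (2.14, SE 0.27).

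Oxidative phosphorylation is the list most touched by gene length. Its 46 genes had a median length of 758 bases, against 2678 for all genes. With all libraries, 25 were higher in LP and 1 in basal cells (median 0.58), against 22.8% and 24.3% of all genes. Without KO mouse 3 the counts were 4 and 1 (median 0.28), and 15 were higher in LP without KO mouse 1. Without the LP library of KO mouse 3 they were 7 and 1, and with the length trend of each library taken out 8 and 1 (median 0.16). The LP counts of 4, 7 and 8 of 46 lie below the LP share of 22.8% over all genes. Ndufb8, a subunit of complex I, was at 67.8, 60.4 and 95.9 CPM in LP and 32.1, 42.4 and 28.7 CPM in basal cells (1.12, SE 0.22, adjusted p = 0.00063), with the mouse 3 library highest in LP and lowest in basal cells. Uqcrc2 was the gene higher in basal cells (-0.45, SE 0.17, adjusted p = 0.036). It was not called without KO mouse 1 or 2, without WT mouse 2 or without the filter on low counts. The call was also lost with the 6 KO libraries alone and with the 12 basal and LP libraries alone.

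Of 20 glucose handling genes, 5 were higher in LP and 7 in basal cells (4 without KO mouse 1), shares near the 22.8% and 24.3% of all genes. Aldoc, an aldolase, was at 117, 108 and 245 CPM in LP and 12.2, 16.8 and 28.5 CPM in basal cells (2.99, SE 0.29, adjusted p = 6.2e-07). The lactate transporter genes Slc16a1 (542, 359 and 222 against 88.2, 93.9 and 50.8 CPM, -2.23, SE 0.25) and Slc16a3 (-3.88, SE 0.45) and the hexokinase gene Hk2 (-1.33, SE 0.26) were basal. Immediate early genes, which respond to tissue handling as well as to signals, were higher in LP in 4 of 23 cases and in basal cells in 9, with 3 and 4 without KO mouse 3 and 4 in basal cells without the mouse block. Klf6 was higher in LP, at 2510, 2630 and 2080 against 1140, 1030 and 1140 CPM (1.12, SE 0.21), and Egr2 in basal cells (-1.93, SE 0.32).

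The same contrast in WT mice gave 6762 called genes (41.1%), 3184 higher in LP (19.3%) and 3578 in basal cells (21.7%). Genes higher in LP in both genotypes numbered 2264, which is 60.2% of those in KO and 71.1% of those in WT mice. Genes higher in basal cells in both numbered 2771, 69.1% of KO and 77.4% of WT calls. Opposite calls were rare, 24 genes higher in LP in KO and in basal cells in WT, and 22 the reverse. Of the 5035 genes called in the same direction, 2857 (56.7%) had the smaller log2 fold change in KO mice, with a median size of 1.98 in KO and 2.16 in WT. Contractile genes were higher in basal cells in 18 of 20 cases in WT (median -4.74) and milk genes higher in LP in 20 of 22 (6.33). Oxidative phosphorylation genes were higher in LP in 2 of 46. The difference between KO and WT, described below, was called for 3, 3 and 0 members of these lists. The KO count of oxidative phosphorylation genes, 25 in LP, fell to 4 without KO mouse 3 and to 8 with the length trend taken out.

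The difference between the genotypes, KO less WT in log2 LP over basal, was tested in the same fit. KO and WT levels within 1 population are set side by side below and were not tested. The SE and adjusted p printed with them are those of the difference. It was called for 437 genes (2.65%), 153 more positive in KO (0.929%) and 284 more negative (1.72%). The count was 206 without KO mouse 3, 268 and 278 without KO mouse 1 or 2, 125 without WT mouse 2, 274 without the LP library of KO mouse 3 and 168 without the mouse block. Of the genes more negative in KO, 126 were higher in LP in both genotypes, so that an LP-high gene was less so in KO. Of those more positive, 60 were higher in basal cells in both.

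**Figure D5:**
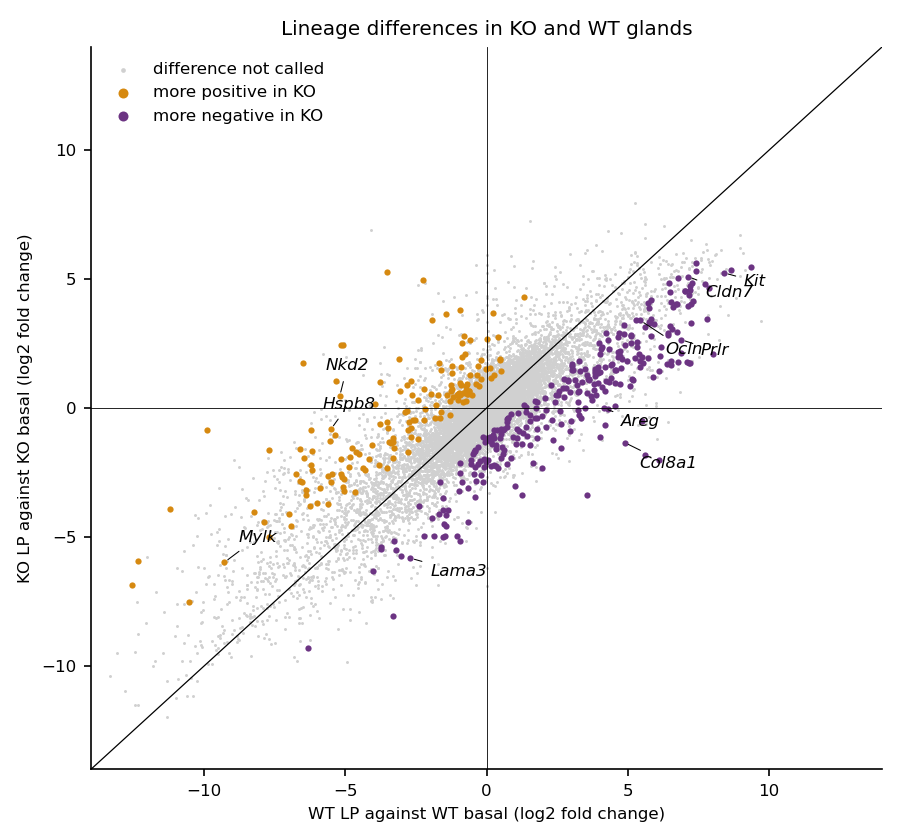
LP over basal log2 fold change of each tested gene in WT (horizontal) and KO mice (vertical), with the 437 genes whose difference between genotypes was called in colour and the line of equal values drawn. Points for Hspb8 and Nkd2 lie above the line at WT values near -5, and Col8a1 and Areg below it.

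Among genes more positive in KO, Hspb8, a small heat shock protein, had the smallest adjusted p. It lay at 197, 120 and 94.2 CPM in LP KO and 209, 223 and 252 CPM in basal KO libraries. The log2 fold change of -0.82 was not called without KO mouse 2 or 3, with the 6 KO libraries alone or without the block. In WT mice Hspb8 lay at 4.56, 4.45 and 3.31 CPM in LP and 130, 260 and 172 CPM in basal libraries (log2 fold change -5.51). The difference was 4.69 (SE 0.42, adjusted p = 5.3e-05). Nkd2, a Wnt inhibitor, was at 89.9, 90.6 and 61.6 CPM in LP KO and 0.370, 0.334 and 2.27 CPM in LP WT, while basal values overlapped between genotypes (5.66, SE 0.59, adjusted p = 0.00026). The chemokine gene Ccl2 (5.0), Angptl2 (3.78) and Micall2 (2.57) had the same sign, as did Mylk, the myosin light chain kinase (3.30, SE 0.47, adjusted p = 0.0013). Mylk was at 19.7, 10.1 and 10.3 CPM in LP KO and 1.48, 1.89 and 1.35 CPM in LP WT, with 786, 642 and 1050 CPM in basal KO. In each of these the LP KO libraries lay above all LP WT libraries.

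Among genes more negative in KO, Col8a1, a short-chain collagen, was at 1.67, 8.84 and 6.09 CPM in LP KO and 92.8, 59.2 and 55.8 CPM in LP WT (difference -6.23, SE 0.54, adjusted p = 5.3e-05). Areg (amphiregulin, an ErbB ligand) differed in basal cells, at 73.5, 63.4 and 67.5 CPM in basal KO and 14.3, 4.05 and 2.54 CPM in basal WT (-4.17, SE 0.51, adjusted p = 0.00061). Its LP libraries overlapped between genotypes. Dmkn likewise stood at 38.3, 42.7 and 41.0 CPM in basal KO and 2.65, 0.789 and 0.848 CPM in basal WT (-4.47). Lama3 in LP was at 186, 149 and 94.1 CPM in WT and 24.4, 20.4 and 11.5 CPM in KO (-3.12, SE 0.36).

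Several luminal genes of the lists above were in this group, and for the 4 described here the basal KO libraries were higher than the basal WT ones. Kit was at 1.71, 1.76 and 3.01 CPM in basal WT against 5.78, 17.5 and 17.4 CPM in basal KO, with overlapping LP values (-3.18, SE 0.54, adjusted p = 0.0049; 0.053 without WT mouse 2). Cldn7 was at 2.03, 1.94 and 2.17 CPM in basal WT and 8.32, 9.04 and 8.05 CPM in basal KO (-2.04, SE 0.31, adjusted p = 0.0022). Ocln was at 5.25, 3.37 and 3.86 CPM in basal WT and 14.9, 10.4 and 9.68 CPM in basal KO (-2.04, SE 0.25). Prlr was at 418, 570 and 415 CPM in LP WT and 51.5, 203 and 65.8 CPM in LP KO. In basal cells Prlr was at 2.34, 6.17 and 3.67 CPM in WT and 6.27, 17.9 and 30.9 CPM in KO (-4.24, SE 0.55). Of basal markers, Krt14 had a difference of 2.29 that was not called (SE 0.59, adjusted p = 0.053), with LP levels at 0.957% of basal ones in KO and 0.197% in WT mice, and Krt5 one of 0.67 (adjusted p = 0.47). Trp63 in LP stood at 1.13% of its basal level in KO and 0.387% in WT mice. For these luminal genes, carry-over of LP cells into the basal KO sort was not tested.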

How the data were processed

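RNA was sequenced from sorted basal, LP and ML populations of 3 KO and 3 WT mice, with total RNA taken by miRNeasy micro and libraries made with TruSeq RNA v2, per the labels' protocols. The authors deposited raw read counts by Entrez identifier, from featureCounts and mm10 per the submitters' processing notes. Aligner, annotation, strand setting and tool versions were not given in the sources used here, and overlapping and antisense genes and near-identical copies may share reads. The 18 single-library files equalled the series table, and 0 of its columns belonged to no sample. Of 27179 identifiers, 25275 were matched to a RefSeq symbol, and the 1904 others held 1.6% of counts.

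Counts were fitted with edgeR 4.0.16 (R 4.3.3) after its default expression filter over 6 groups, which left 16466 genes, and scaling by the trimmed mean of M-values. The quasi-likelihood fit used all 18 libraries, with the mouse as a block and LP and ML terms within each genotype (8 residual degrees of freedom, biological coefficient of variation 26.4%). Benjamini-Hochberg adjustment was made over all genes of a comparison, with a threshold of 0.05. The basal and LP libraries of 1 mouse come from the same animal, per the sample names, and their deviations from the group means correlated at 0.234, 0.162 and 0.125 in KO and 0.334, 0.219 and 0.216 in WT mice, against -0.268 to 0.102 between different mice. P-values measure the spread left after the mouse block, which is that of population differences from mouse to mouse, pooled over both genotypes. Chi-square values of 23.9 to 220.4 per degree of freedom between replicates gave no sign of duplicated libraries. Ratios per mouse used a prior count of 2. The fit was also run on counts simulated from its own means and spread, which cannot show where its model departs from the data.

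The members and the 39 gene lists were chosen with earlier results of these data known. The lists hold 726 genes, of which 700 were tested, 24 fell below the filter and 2 were not found. Genes named are Trp53 and Brca2, the 12 of largest change each way among called genes of at least 20 CPM without overlap and with the same sign in each mouse (predicted genes left out), up to 4 members of lowest p in each list with the largest opposing call, members of the keratin, contractile, hemidesmosome, progenitor, milk, Notch, transition and sort marker lists, and the 8 genes of lowest p each way in the KO and WT difference with at least 5 CPM in 1 group. Other list members whose difference between KO and WT is given were chosen after their values were seen. Promoters are the 250 bases before the start in RefSeq (GRCm38.p6), held for 12237 genes tested. A gene counted as a match if any of its listed starts held the box. Alternatives were another scaling, DESeq2 1.42.0, limma 3.58.1 (voom), no filter, no block, fewer libraries, equal depth and each mouse left out. Some genes covered by these rules are not reported here.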

Additional observations from a re-analysis of the deposited data

Results flagged for a closer look

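The LP over basal log2 fold change differed between KO and WT mice, by the test of the difference itself in edgeR, for 27 genes named in the text, with values given as KO less WT.

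The value was positive for 6 of them, Nkd2 at 5.66, Ccl2 at 5.0, Hspb8 at 4.69, Angptl2 at 3.78, Mylk at 3.3 and Micall2 at 2.57. It was negative for 21.

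Among signalling genes the values were -4.17 for Areg, -2.5 for Btc, -3.15 for Fgfr2, -3.18 for Kit, -4.24 for Prlr and -2.97 for Lgr5. The Notch target genes Hes1 and Hey1 had -1.39 and -2.78. Junction, matrix and filament genes had -2.04 (Cldn7), -2.04 (Ocln), -1.75 (Pkp2), -1.62 (Krt19), -6.23 (Col8a1), -3.12 (Lama3) and -4.47 (Dmkn). The regulators Ehf, Cited1 and Klf6 had -2.63, -2.51 and -1.63. The values of the mitotic kinase gene Aurkb, the interferon-induced Iigp1 and Trp53 were -5.4, -2.59 and -1.76.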

How the results depend on the processing

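The number of genes called between KO LP and KO basal cells stayed between 5885 and 8514 under every alternative run, and that in WT mice between 4617 (without WT mouse 2) and 7348. The number called in the difference between KO and WT, 437 here, moved more. It was 168 without the replicate block (pairing by mouse), 280 with the 12 basal and LP libraries alone, 698 without a filter on low counts and 1036 with DESeq2. Leaving out 1 mouse at a time gave 125 to 434, and leaving out the LP library of KO mouse 3, an alternative chosen after seeing the data like the length trend, gave 274. Fewer samples or genes entered some of these fits, and the cause was otherwise not tested. Of 160 named genes called in KO mice, 145 kept their call under all alternatives run, and of 27 in the difference 14 did. In all, 56 and 48 values lost their call, and 0 reversed. Without the block the calls of Ccl2, Col1a1, Col8a1, Prkci, Hspb8, Itga2, Pdlim3, Tcf7l2 and Brca2 in KO mice and of Cited1, Hes1, Hey1, Iigp1, Krt19 and Trp53 in the difference were lost. No other call of a named gene was lost without the block. In the difference, WT mouse 2 bore most, and Aurkb, Btc, Ehf, Hes1, Hey1, Kit, Klf6, Krt19, Lgr5, Pkp2 and Trp53 were not called without it. The difference for Btc was -1.01 with libraries thinned to 1 depth (adjusted p = 0.61 in edgeR), and it was also not called with voom or without KO mouse 2 or 3. The difference could not be fitted in the 6 KO libraries alone. Gene levels of a few counts, such as those of Cldn5, carry wide counting error.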
